A study of Homo sapiens with 33 samples.

Results

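To follow the granulosa lineage beyond WNT signalling, 8 genes were read across the whole differentiation: KITLG, AMHR2, ESR1, ESR2, NR2F2, RUNX1, CDKN1B and GJA1. They were chosen by name, as the rows of the gene count table that carry these symbols, and all 8 were found among 58735 genes. The cells were H9-DDdCas9VP192-FOXL2 clone 24, a single clone of the H9 human embryonic stem cell line in which a destabilised dead Cas9 activator switches on the endogenous FOXL2 gene when doxycycline (DOX) and trimethoprim (TMP) are added. The clone was taken through gonadal differentiation, and bulk RNA sequencing was made of 33 libraries in 11 groups of 3. One group is day 4, the intermediate mesoderm stage before induction. The other groups are non-induced cells (CTRL, without DOX and TMP) and induced cells (IND, with DOX and TMP from day 4 on), each at day 6, day 8, day 10, day 12 and day 14. Every group carries the activation cassette, and no group received the compounds without it, so the effect of DOX and TMP cannot be told apart from that of FOXL2. The study describes the 3 libraries of a group as technical replicates of 1 biological replicate, so every p-value here measures only the spread between these samples.

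Granulosa cells are the supporting cells of the ovary. They surround the oocyte and signal to it through KIT ligand and gap junctions, respond to anti-Müllerian hormone and oestrogens, and stay out of the cell cycle in the primordial follicle while the inhibitor p27 is present. RUNX1 is expressed in fetal pre-granulosa cells, where together with FOXL2 it helps to keep the ovarian identity of the supporting lineage, whereas NR2F2 is best known in the gonad as a marker of the stromal and steroidogenic precursors.

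On GRCh38 (GENCODE 29), 3 of the genes lie on chromosome 12: KITLG at chr12:88492793-88580851 on the minus strand, AMHR2 at chr12:53423855-53431534 and CDKN1B at chr12:12715058-12722371, both on the plus strand. ESR1 (chr6:151656691-152129619) and GJA1 (chr6:121435577-121449727) lie on the plus strand of chromosome 6, and NR2F2 (chr15:96325938-96340263) on that of chromosome 15. ESR2 (chr14:64084232-64338112) and RUNX1 (chr21:34787801-36004667) are on minus strands. All 8 are protein-coding.

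Deposited totals ran from 23940800 to 51912800 counts per library. FOXL2, the targeted gene, had group means of 0.0343 to 0.213 CPM (counts scaled to library size by the TMM method) in the 5 CTRL groups and of 171 to 528 CPM in the 5 IND groups, so every group followed its label. Comparing the counts of replicates gene by gene, 3 libraries, picked without a set cutoff, stood furthest from both others of their group. Day 10 IND replicate 2 differed from them by a chi-squared of 206 and 224 per gene, where the others differed by 11.5. It also has the lowest total, and 0.691% of its counts are mitochondrial against 2.50% to 3.26% in the other day 10 libraries. Day 12 IND replicate 1 differed from its group by 110.4 and 85.6 against 16.1, and day 4 replicate 3 by 64.1 and 114 against 15.8, with 1.14% mitochondrial counts against 3.33% and 4.28%. Day 8 IND replicate 3 stood less far apart (38.8 and 26.3 against 9.67), and no list was refitted without it. Calls of the 8 genes that changed without the 3 libraries are given below, as are many of the changed counts of the lists. The 12 granulosa markers fixed for a check of the label summed to 114 to 306 CPM over the 33 libraries, and 8 to 10 of them were tested on each day. CYP19A1, LHCGR and NR5A1, defining genes of steroid-making granulosa cells, had group means under 1 CPM in every CTRL and IND group. Other markers of the list rose or fell in IND, as given below. The label granulosa is used for what the 8 genes are known for. Whether the cells measured are granulosa cells was not tested. Because these are bulk samples, fewer cells of a type and less RNA per cell cannot be told apart.

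The 250 bases before the annotated start are shown for RUNX1 and AMHR2. They are the receptor and the transcription factor whose level rose most from day 4, and neither stretch overlaps an annotated exon. Both come from RefSeq, GRCh38.p14, and are written 5′ to 3′ on the strand of the gene, with capitals marking the GC box (GGGCGG, or CCGCCC on the other strand). RUNX1 lies at chr21:34888700-34888949 on the minus strand and precedes 1 of the 15 start sites annotated for the gene. AMHR2 lies at chr12:53423605-53423854 on the plus strand.
RUNX1: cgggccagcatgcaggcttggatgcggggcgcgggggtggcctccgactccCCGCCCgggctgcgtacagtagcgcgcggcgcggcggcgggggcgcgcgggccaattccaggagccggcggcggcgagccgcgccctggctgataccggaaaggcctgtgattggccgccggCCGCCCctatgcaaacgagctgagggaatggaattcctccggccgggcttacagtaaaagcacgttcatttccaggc
AMHR2: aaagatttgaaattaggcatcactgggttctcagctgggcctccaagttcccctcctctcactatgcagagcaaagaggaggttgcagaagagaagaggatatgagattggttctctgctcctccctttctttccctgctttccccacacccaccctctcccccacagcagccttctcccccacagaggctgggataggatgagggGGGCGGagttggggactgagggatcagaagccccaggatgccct
The RUNX1 stretch holds 2 GC boxes and the AMHR2 stretch 1. A total of 4 motifs was searched on both strands in windows of 300 bases around 35116 promoters: the GC box was present in 45.0% of them, a nuclear receptor element (AGGTCA) in 13.8%, a RUNX element (TGTGGT) in 13.1% and a forkhead element (TGTTTAC) in 3.42%. None of the windows of the 8 genes holds the forkhead letters. A match is a description of the letters and not a bound site, and the lack of one says only that these letters are not in the window.

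**Figure D1:**
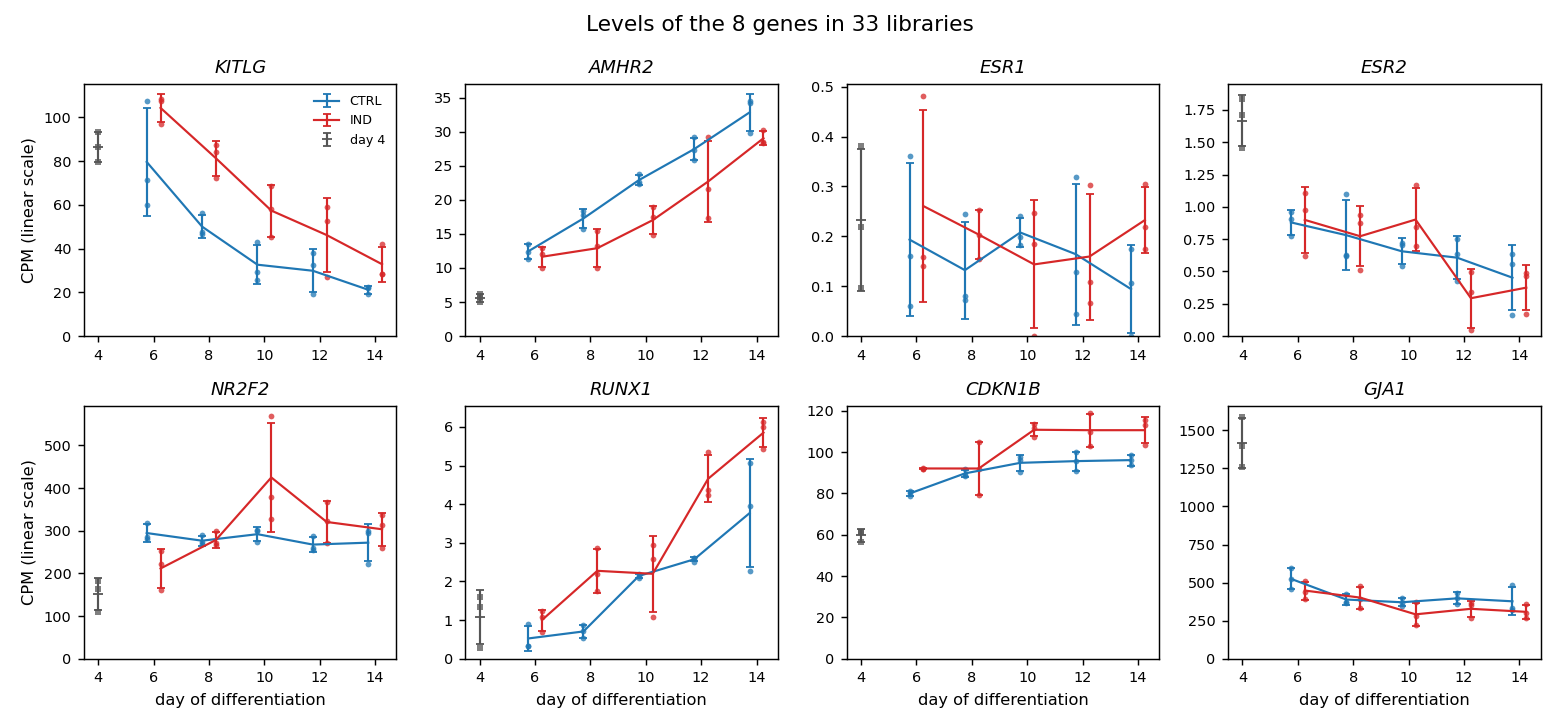
Level of each of the 8 genes in CPM (y axes, linear) against day of differentiation (x axes). Points are single libraries, lines join group means and bars are 1 SD of 3 libraries, in grey for day 4, blue for CTRL and red for IND. At day 14 KITLG and GJA1 are below day 4 and AMHR2 and RUNX1 above it in both conditions, while KITLG is highest in day 6 IND. At day 8 all 3 IND libraries lie above all 3 CTRL libraries for KITLG and RUNX1.

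KITLG encodes KIT ligand, the granulosa signal to the KIT receptor of germ cells. It fell as differentiation went on, and the induced cells kept more of it. Its level at day 4 was 93.3, 86.6 and 79.4 CPM. At day 6 it was 59.9, 107 and 71.5 CPM in CTRL and 96.9, 108 and 109 CPM in IND. The spread of the CTRL libraries covered the day 4 range there, and 1 of them overlapped the IND range. At day 8 the 3 CTRL libraries held 47.5, 56.1 and 46.6 CPM and the 3 IND libraries 87.6, 84.1 and 72.2 CPM, with no overlap. At day 10 the CTRL libraries held 29.3, 25.8 and 42.9 CPM and the IND libraries 58.3, 45.1 and 68.8 CPM, still apart. At day 12 they held 19.0, 37.9 and 32.7 CPM against 26.8, 59.2 and 52.6 CPM, and the groups overlapped because the first IND library was low. At day 14 they held 22.1, 22.4 and 19.0 CPM against 28.3, 42.0 and 28.2 CPM, again without overlap. The IND groups were 1.64-fold higher at day 8 (log2 fold change 0.71 ± 0.10 SE, adjusted p = 0.000779 in the edgeR test, Benjamini-Hochberg over all genes) and 1.55-fold higher at day 14 (0.64 ± 0.15 SE, adjusted p = 0.0247).

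The day 8 difference in KITLG passed under 11 of 12 alternatives, with adjusted p from 7.01e-14 to 0.0964, and was lost in 1 joint fit over all 33 libraries. The day 14 difference passed under 7 of 12, with adjusted p from 4.44e-06 to 0.229. It was lost without CTRL replicate 1, CTRL replicate 2 or IND replicate 2. The differences of 0.41 at day 6, 0.82 at day 10 and 0.63 at day 12 did not pass, with adjusted p of 0.395, 0.173 and 0.322. With day 10 IND replicate 2 left out the day 10 value was 0.96 (adjusted p = 0.0739), and without day 12 IND replicate 1 that of day 12 was 0.91 (adjusted p = 0.192). Against day 4, the CTRL level at day 6 had not passed the test (-0.12, adjusted p = 0.699), and it was lower by day 8 (-0.79, adjusted p = 0.000732). By day 14 it had dropped to 0.246 of the day 4 level (-2.02, adjusted p = 2.86e-06), and in IND it was also below day 4 (-1.40, adjusted p = 8.15e-05). In order of mean level, day 6 IND came first and stood clear of the next group, day 4. Each further step down to day 14 CTRL overlapped its neighbour.

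The receptor KIT did not pass the test between IND and CTRL on any day with all libraries. At day 8 it had 62.6 CPM in IND and 31.7 CPM in CTRL (0.99, adjusted p = 0.0700), and at day 10 it passed without IND replicate 2 (0.73, adjusted p = 0.000956). Over all genes tested, 1.29% were higher and 2.37% lower in IND at day 6, 7.49% and 6.67% at day 8, 0.856% and 1.18% at day 10, 2.38% and 3.04% at day 12, and 3.21% and 5.22% at day 14. In the day 10 fit without IND replicate 2 the shares at day 10 were 8.74% and 9.51%, and without day 12 IND replicate 1 those at day 12 were 4.16% and 5.49%. Against these shares, of the 12 genes of KIT signalling, all tested, 2 rose at day 8 (FOXO3 and PTPN6). FOXO1, a transcription factor restrained by this pathway, fell at day 6 (by 0.56) and at day 12. No other gene of the list passed with all libraries, while 3 rose and 1 fell at day 10 without IND replicate 2, and 2 fell at day 12 without IND replicate 1. The median log2 difference of the list was 0.05 at day 8, against 0.00 over all genes.

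AMHR2, the type II receptor that binds anti-Müllerian hormone, climbed steadily with differentiation in both conditions. It had 6.14, 5.68 and 4.94 CPM at day 4. At day 6 the CTRL libraries held 11.3, 13.6 and 12.4 CPM and the IND libraries 12.9, 12.0 and 10.0 CPM. At day 8 they held 15.8, 18.3 and 17.8 CPM against 10.0, 13.2 and 15.5 CPM, all IND libraries lying below all CTRL libraries. The groups were also apart at day 10, with 22.6, 23.8 and 22.4 CPM against 18.9, 14.8 and 17.4 CPM. At day 12 the values were 27.3, 25.9 and 29.2 CPM in CTRL and 29.2, 17.3 and 21.6 CPM in IND. At day 14 they were 29.8, 34.2 and 34.6 CPM and 30.2, 28.5 and 28.4 CPM, overlapping on both days. From day 10 on the CTRL libraries were above every library of days 4 and 6. The day 14 CTRL level was 5.90-fold that of day 4 (2.56, adjusted p = 3.12e-06) and the day 14 IND level was above it too (2.37, adjusted p = 1.75e-06). The step was already past the threshold at day 6 (1.15, adjusted p = 0.00127). The order of levels began with day 14 CTRL, which overlapped day 14 IND, which in turn overlapped day 12 CTRL. Day 4 stood below every other group.

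Between IND and CTRL the AMHR2 mean was lower in IND on each day, by 0.08, 0.41, 0.42, 0.27 and 0.17 on the log2 scale from day 6 to day 14. None of these passed with all libraries, the smallest adjusted p being 0.0959 at day 8. The day 8 difference did pass without IND replicate 3 (-0.56, adjusted p = 0.0122) and without the filter on low counts (adjusted p = 0.0180). Without day 10 IND replicate 2, the day 10 difference passed (-0.34, adjusted p = 0.0206), as did that of day 12 without IND replicate 1 (-0.50, adjusted p = 0.0232). AMH, the ligand, did not pass on any day. BMPR1B, a type I receptor of the same superfamily, was higher in IND at day 8 (1.61, adjusted p = 0.0162), day 12 (1.45, adjusted p = 0.0120) and day 14 (0.98, adjusted p = 0.0111). SMAD9, a receptor-activated mediator, rose at day 8 (0.66, adjusted p = 0.00913) and day 14 (0.49, adjusted p = 0.0172), while SMAD6, an inhibitor of the branch, fell at days 6, 8 and 14. Of the 13 genes of AMH signalling, 2 fell at day 6 (all genes 2.37%), 2 rose and 2 fell at day 8 (7.49% and 6.67%), none passed at day 10, 1 rose at day 12 (2.38%), and 2 rose and 1 fell at day 14 (3.21% and 5.22%). With day 10 IND replicate 2 left out, 2 rose and 3 fell at day 10 (8.74% and 9.51%), BMPR1B among them (1.72, adjusted p = 5.18e-05). Per length, AMHR2 made up 7.21% of the summed FPKM of 5 type II receptors at day 4 and 25.9% in CTRL and 22.5% in IND at day 14.

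The oestrogen receptors were barely transcribed. ESR1, oestrogen receptor alpha, had 0 to 18 counts per library, with 8 libraries at or under 3 counts, and each of the 11 groups overlapped its neighbours in the order of levels. It had too few counts to be tested within any pair of groups. ESR2, oestrogen receptor beta and the main form of granulosa cells, had 2 to 53 counts. Its level was 1.45, 1.84 and 1.71 CPM at day 4 and lower afterwards, with group means from 0.293 to 0.902 CPM. All 3 day 4 libraries were above the other 30 libraries, and each later group overlapped its neighbours in the order of levels. ESR2 in CTRL was below day 4 at day 8 (-1.10, adjusted p = 0.0377), day 10 (-1.32, adjusted p = 0.00761), day 12 (-1.45, adjusted p = 0.00756) and day 14 (-1.84, adjusted p = 0.0114). The day 8 call held under 4 of 12 alternatives (adjusted p 0.0341 to 0.137) and was lost without day 4 replicate 1 or 2 and without day 8 CTRL replicate 1 or 2. IND and CTRL did not differ past the threshold on any day, the differences running from -1.05 to 0.45 with adjusted p of 0.400 or more. ESR2 shares 523 exonic bases with AL161756.1, a gene on the same strand that holds 1033 counts over all libraries against 956 for ESR2, so the counts of ESR2 are uncertain.

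Of the 18 genes of the oestrogen receptor list, 16 were tested. ESRRG, an orphan oestrogen-related receptor, rose at day 6 (0.77) and day 8 (0.57), and ESRRB fell at day 14. With all libraries no gene of the list passed at day 10 or day 12. In the day 10 fit without IND replicate 2, ESRRG passed at day 10 (0.68, adjusted p = 0.0120). By FPKM, ESR2 held 66.4% to 91.6% of the summed level of both receptors across the group means.

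NR2F2 encodes COUP-TFII, an orphan nuclear receptor of gonadal stroma and of the mesenchyme. In CTRL it was higher than day 4 by day 6 and then stayed level. It had 164, 109.9 and 183 CPM at day 4. At day 6 the CTRL libraries held 318, 279.8 and 286 CPM and the IND libraries 252, 222 and 160.3 CPM, so that all IND libraries were below all CTRL libraries. At day 8 the conditions overlapped, with 272, 289 and 268 CPM against 266, 270.0 and 299 CPM. At day 10 they did not, with 303, 299.9 and 273 CPM against 379, 568 and 326 CPM, the highest value coming from replicate 2. At day 12 the CTRL libraries held 255, 259.9 and 288 CPM and the IND libraries 271, 368 and 323 CPM. At day 14 they held 295, 299 and 221 CPM and 313, 337 and 260.1 CPM. NR2F2 in CTRL was above day 4 at every day from day 6 (0.95, adjusted p = 0.00251) to day 14 (0.84, adjusted p = 0.00575).

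The difference of NR2F2 between IND and CTRL was -0.46 at day 6 and 0.55 at day 10, and neither passed (adjusted p = 0.101 and 0.309). With DESeq2 the day 6 difference did pass, lower in IND (adjusted p = 0.0261). Without day 10 IND replicate 2 the day 10 difference was 0.27 and passed (adjusted p = 0.0286), and without day 12 IND replicate 1 that of day 12 was 0.37 and passed (adjusted p = 0.0192). NR2F1, its paralogue, rose at day 8 (0.55, adjusted p = 0.000663), day 10 (0.79, adjusted p = 0.0137) and day 12 (0.72, adjusted p = 0.0152) and had a difference of -0.08 at day 14. NRP2, a neuropilin regulated by COUP-TFII in lymphatic endothelium, rose at days 6, 8 and 14 (0.92, 1.18 and 0.52). Of the 10 genes of the COUP-TF list, 1 rose and 1 fell at day 6 (all genes 1.29% and 2.37%), 4 rose and 3 fell at day 8 (7.49% and 6.67%), 1 rose at day 10 (0.856%), 2 rose at day 12 (2.38%), and 1 rose and 1 fell at day 14 (3.21% and 5.22%). With day 10 IND replicate 2 left out, 5 rose and 1 fell at day 10 (8.74% and 9.51%), NR2F1 with a difference of 0.80 (adjusted p = 1.36e-06), and without day 12 IND replicate 1, 3 rose at day 12 (4.16%). NR2F2 accounted for 23.4% of the FPKM of NR2F1, NR2F2 and NR2F6 at day 4 and for 35.3% in CTRL and 39.3% in IND at day 14.

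RUNX1, a runt-domain transcription factor, was present at a low level, 9 to 310 counts per library, and rose late. It had 1.34, 1.59 and 0.291 CPM at day 4. At day 6 the CTRL libraries held 0.332, 0.904 and 0.336 CPM and the IND libraries 0.696, 1.08 and 1.22 CPM. At day 8 the CTRL libraries held 0.532, 0.866 and 0.722 CPM and the IND libraries 2.88, 2.20 and 1.75 CPM, well apart. At day 10 they held 2.19, 2.15 and 2.09 CPM against 2.57, 1.08 and 2.94 CPM, the low value again coming from replicate 2. At day 12 they held 2.62, 2.51 and 2.60 CPM against 4.38, 4.23 and 5.36 CPM, with no overlap. At day 14 they held 3.95, 2.28 and 5.08 CPM against 5.42, 6.13 and 6.00 CPM, and all IND libraries were above all CTRL libraries. The IND level was 3.24-fold higher at day 8 (1.70 ± 0.30 SE, adjusted p = 0.00364) and 1.81-fold higher at day 12 (0.85 ± 0.19 SE, adjusted p = 0.0391).

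The day 8 difference in RUNX1 passed under 11 of 12 alternatives (adjusted p from 5.27e-06 to 0.0613) and was lost in limma on FPKM. RUNX1 had 0.045 FPKM in CTRL and 0.146 FPKM in IND there. The 1 added to FPKM before the log shrank the difference to 0.13, and to 0.15 at day 12. A loss in this setting therefore says little about RUNX1. The day 12 difference passed under 4 of 12 (adjusted p from 0.00578 to 0.202). It was lost without any 1 of the 3 CTRL libraries and without IND replicate 2 or 3. At day 6 and day 14 the differences of 0.95 and 0.64 did not pass (adjusted p = 0.379 and 0.156), nor did the 0.05 of day 10 (adjusted p = 0.957), which was 0.36 without IND replicate 2 (adjusted p = 0.267). Against day 4, the rise of RUNX1 in CTRL passed at day 14 (1.81, adjusted p = 0.0206, with 3.64e-06 to 0.0817 over 12 alternatives) but not without day 14 CTRL replicate 1 or 3, and that in IND passed at day 14 (2.44, adjusted p = 0.00161). At day 12 the rise in CTRL did not pass (1.26, adjusted p = 0.0655), but it did under 7 of 12 alternatives, DESeq2 among them (adjusted p 0.0134 to 0.145 over the 12). Without day 4 replicate 3, whose level was the lowest of day 4, RUNX1 in CTRL was also below day 4 at day 6 (-1.49, adjusted p = 0.0325) and day 8 (-1.04, adjusted p = 0.0423) and above it at day 12 (0.83, adjusted p = 0.0212). Day 14 IND had the highest mean and stood clear of day 12 IND.

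**Figure D2:**
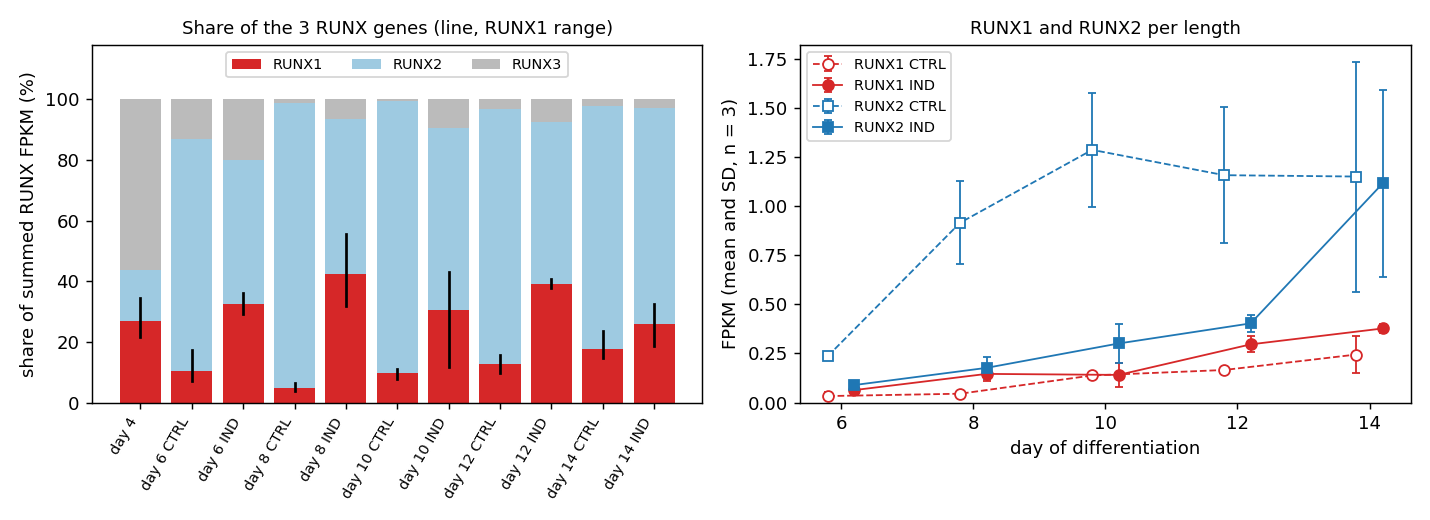
Left, the share of RUNX1 (red), RUNX2 (blue) and RUNX3 (grey) in the summed FPKM of the 3 RUNX genes (y axis, percent, group means) in the 11 groups, with black lines for the range of the RUNX1 share over 3 libraries. Right, FPKM (y axis, mean and SD of 3 libraries) against day for RUNX1 (red circles) and RUNX2 (blue squares) in CTRL (open, dashed) and IND (filled, solid); at day 8 the RUNX1 share is 42.5% in IND and 4.73% in CTRL.

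Its paralogue RUNX2, a runt factor of bone and mesenchyme, moved the other way. At day 8 it had 6.50, 6.64 and 9.54 CPM in the CTRL libraries and 0.924, 1.64 and 1.79 CPM in the IND libraries. It fell in IND at day 6 (-1.40, adjusted p = 0.0152), day 8 (-2.36, adjusted p = 0.00018), day 10 (-2.10, adjusted p = 0.0276) and day 12 (-1.51, adjusted p = 0.0102), with a difference of -0.02 at day 14. RUNX1 thereby held 42.5% of the summed FPKM of RUNX1, RUNX2 and RUNX3 in IND at day 8, with 31.8% to 55.7% in single libraries, and 4.73% in CTRL, with 3.81% to 6.30%. At day 14 the shares were 25.9% and 17.8%. GATA4, a gonadal transcription factor of the same list, fell in IND on all 5 days (by 0.82, 1.34, 1.11, 0.90 and 0.55), and GATA2 fell at days 6, 12 and 14. Of the 10 or 11 tested genes of the RUNX list, 5, 5, 2, 3 and 4 fell from day 6 to day 14, and none rose, where 2.37%, 6.67%, 1.18%, 3.04% and 5.22% of all genes were lower. In the day 10 fit without IND replicate 2, 5 fell at day 10 (all genes 9.51%), RUNX2 with -2.39 (adjusted p = 4.79e-06) and GATA4 with -1.30 (adjusted p = 4.87e-07), and the RUNX1 share of day 10 IND went from 30.5% to 39.8%. Without day 12 IND replicate 1, 4 genes of the list fell at day 12 (5.49%). The study reports a fall of GATA4 upon induction, and the list was chosen with earlier results of these data known. The counts of the RUNX list beside the shares of all genes are therefore a description and not a test.

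CDKN1B encodes p27, the cyclin-dependent kinase inhibitor that restrains the growth of primordial follicles. Its rise was small, and the libraries lay close together in most groups but not in day 8 IND. It had 56.3, 61.3 and 61.5 CPM at day 4. At day 6 the CTRL libraries held 78.7, 81.1 and 80.1 CPM and the IND libraries 92.0, 92.1 and 92.2 CPM, without overlap. At day 8 they held 91.6, 88.7 and 88.8 CPM against 79.3, 91.8 and 105 CPM. The IND libraries were again all higher at day 10, with 90.5, 97.6 and 96.3 CPM against 107, 113 and 112 CPM. So they were at day 12, with 91.0, 100.3 and 95.6 CPM against 109.6, 103 and 119 CPM, and at day 14, with 96.0, 98.8 and 93.5 CPM against 103, 115 and 113 CPM. The groups therefore overlapped only at day 8. None of the 5 differences, 0.05 to 0.23, passed the test, the smallest adjusted p being 0.144 at day 14. Here and for the other genes, a lack of overlap between 3 and 3 libraries only describes the values. How many of all genes separate in this way was not counted. Against day 4 CDKN1B rose in CTRL from day 6 (0.42, adjusted p = 0.0206) to day 14 (0.69, adjusted p = 0.00034) and in IND at day 14 (0.88, adjusted p = 5.03e-05). The day 6 call held under 9 of 12 alternatives (adjusted p 0.000693 to 0.127) and was lost without day 4 replicate 1 and without day 6 CTRL replicate 2 or 3. Without day 10 IND replicate 2, the difference between IND and CTRL at day 10 passed (0.20, adjusted p = 0.0412).

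CDKN2B, the inhibitor p15, was the gene of the cell cycle list that differed most. It fell in IND on all 5 days (by 1.53, 2.14, 2.01, 2.28 and 2.57), with adjusted p from 5.72e-05 to 0.0266. CCND3, a D-type cyclin, fell at days 6 and 8 (by 0.54 and 0.44). CDKN1A and CDKN1C, the other two inhibitors of the CIP/KIP family, did not pass between IND and CTRL on any day. Of the 17 genes of the list, 3, 4, 1, 2 and 3 fell from day 6 to day 14 (all genes 2.37%, 6.67%, 1.18%, 3.04% and 5.22%), and 1 rose, at day 14 (3.21%). With day 10 IND replicate 2 left out, 6 fell and 1 rose at day 10 (9.51% and 8.74%), CDKN2B with -2.36 (adjusted p = 1.33e-07), and without day 12 IND replicate 1, 5 fell at day 12 (5.49%). CDKN1B made up 26.0% to 44.7% of the FPKM of the 3 CIP/KIP genes over the group means, below CDKN1C with 41.1% to 56.7%.

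GJA1, connexin 43, forms the gap junctions between granulosa cells. It dropped steeply between day 4 and day 6 and remained low in both conditions. Its level at day 4 was 1397, 1589 and 1259.7 CPM. At day 6 it was 456, 594 and 524 CPM in CTRL and 395, 438 and 512 CPM in IND. At day 8 it was 367, 427 and 372 CPM against 478, 393 and 333 CPM. The conditions overlapped on both days. At day 10 the CTRL libraries held 347, 365 and 400.4 CPM and the IND libraries 279, 223 and 372 CPM. At day 12 they held 357, 434 and 399 CPM against 268, 365 and 350.4 CPM. At day 14 they held 331, 317 and 484 CPM against 268, 297 and 358 CPM, so the groups overlapped on all 5 days. Day 14 CTRL was at 0.267 of day 4 (-1.90, adjusted p = 4.13e-05), and most of that fall was present at day 6 (-1.44, adjusted p = 5.43e-05). In IND the day 14 difference from day 4 was -2.21 (adjusted p = 2.37e-06). None of the differences between IND and CTRL passed (-0.34 to 0.06, adjusted p of 0.347 or more), and the -0.34 of day 10 was -0.19 without IND replicate 2 (adjusted p = 0.332).

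GJA1 was still the main connexin. Of the summed FPKM of 21 connexins it held 95.5% at day 4 and 86.6% in CTRL and 83.3% in IND at day 14. Its lowest mean share, 72.5%, was in day 10 IND, where single libraries ran from 52.8% to 84.1%. Without replicate 2 the mean share of that group was 82.4%. GJA4, the vascular and oocyte connexin 37, rose in IND at day 12 (1.40, adjusted p = 0.0208) and day 14 (0.84, adjusted p = 0.0486). Of 23 gap junction genes, 12 to 15 were tested. None passed at days 6 and 10 by edgeR's test, 1 rose at day 8 (PANX2, all genes 7.49%), 1 at day 12 (GJA4, 2.38%) and 4 at day 14 (GJA4, GJA5, GJB6 and PANX2, 3.21%). In the day 10 fit without IND replicate 2, 2 rose and 2 fell at day 10 (8.74% and 9.51%), and without day 12 IND replicate 1, 2 rose at day 12 (4.16%).

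**Figure D3:**
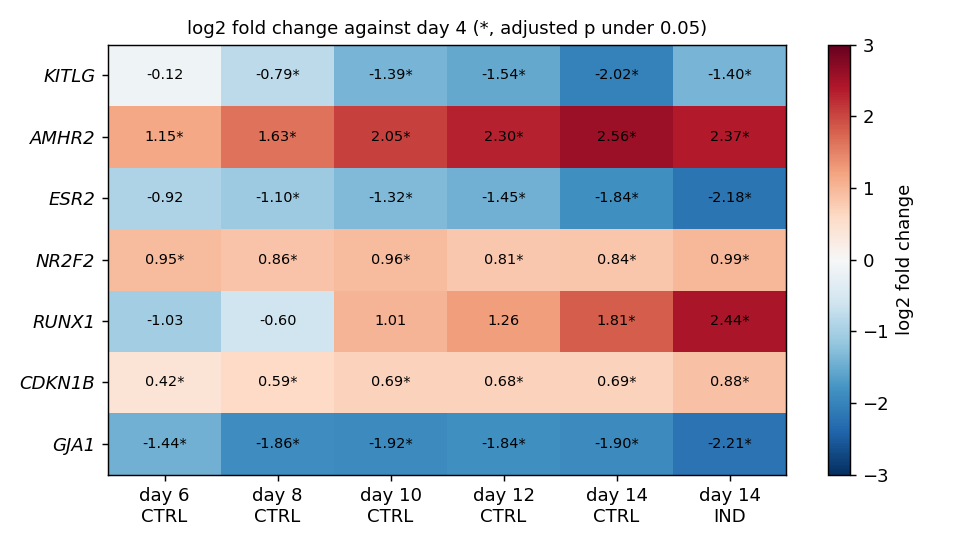
log2 fold change against day 4 for the 7 tested genes (rows) in the 5 CTRL groups and in day 14 IND (columns), coloured from blue (lower) to red (higher), with an asterisk where the adjusted p was under 0.05. AMHR2 has the highest value, 2.56 in day 14 CTRL, and GJA1 and KITLG are lower than day 4 at day 14.

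Taking the 8 genes side by side, more of them passed the test against day 4 than between IND and CTRL. In CTRL against day 4, 3 of 7 tested genes were higher and 1 was lower at day 6, where 11.0% of all genes tested were higher and 10.6% lower. The same 3 genes, AMHR2, NR2F2 and CDKN1B, were higher on each of the next 3 days sampled, and KITLG, ESR2 and GJA1 were lower. The background of all genes was 18.1% higher and 18.9% lower at day 8, 23.1% and 22.0% at day 10, and 24.4% and 23.8% at day 12. At day 14 RUNX1 joined the higher genes by edgeR's test of each pair of groups, while other settings called it at day 12 as given above. This gave 4 higher and 3 lower in CTRL (background 24.6% and 22.9%) and the same 4 and 3 in IND (background 25.8% and 24.8%). These comparisons share the day 4 libraries. Without day 4 replicate 3 these calls remained, RUNX1 aside as given above, with a background at day 14 of 26.8% and 24.2% in CTRL. The median size of the difference without sign at day 14 was 1.84 for the 7 genes and 0.55 for all genes tested.

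**Figure D4:**
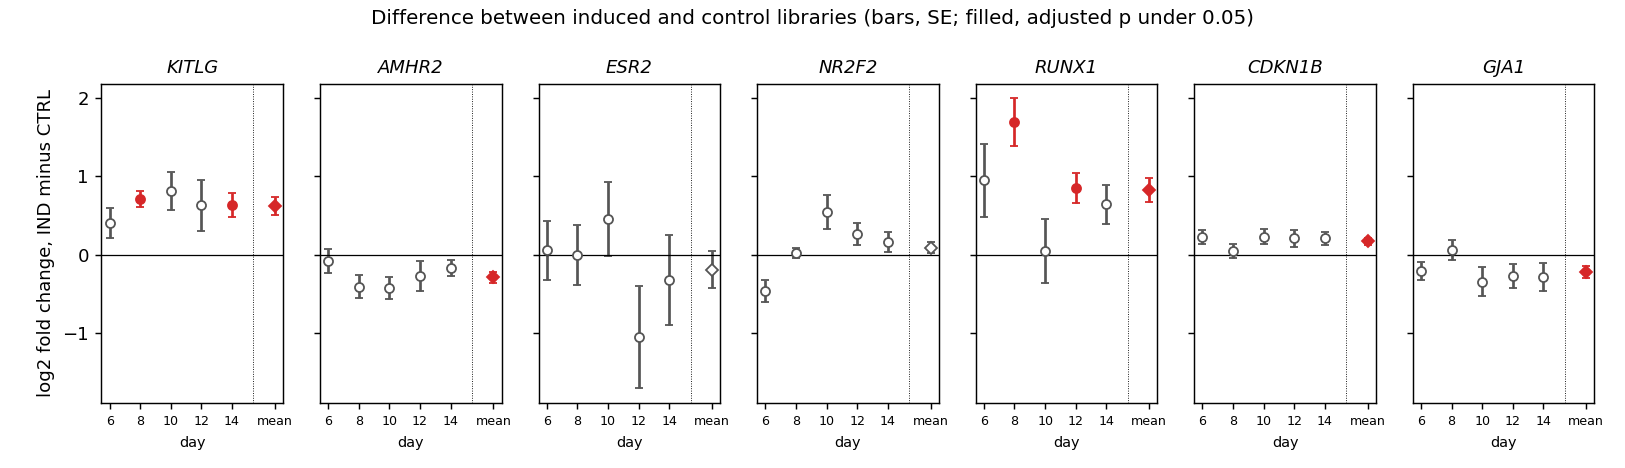
log2 fold change of IND over CTRL (y axis) for 7 of the genes, 1 panel each, at each day (circles) and for the mean of the 5 days (diamonds, right of the dotted line), with bars of 1 SE from the edgeR fit. Filled red symbols mark an adjusted p under 0.05, which among the days are KITLG at days 8 and 14 and RUNX1 at days 8 and 12, and for the mean also AMHR2, CDKN1B and GJA1.

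Between IND and CTRL, KITLG and RUNX1 were the genes called, on 2 of 5 days each. At day 8, 2 of 7 (KITLG and RUNX1) were higher and none lower, against 7.49% of all genes higher and 6.67% lower. At day 12, 1 was higher (RUNX1, background 2.38% higher and 3.04% lower), and at day 14, 1 was higher (KITLG, background 3.21% and 5.22%). At day 6 none of 7 passed edgeR's test (background 1.29% and 2.37%), with 2 at an unadjusted p under 0.05 and 1 called by DESeq2 (NR2F2). At day 10 none passed either (background 0.856% and 1.18%), with 4 at an unadjusted p under 0.05 and 1 called by DESeq2 (KITLG). Without day 10 IND replicate 2, 3 passed, AMHR2 lower and NR2F2 and CDKN1B higher, in a fit where 8.74% of all genes were higher and 9.51% lower. Without day 6 CTRL replicate 2 KITLG passed at day 6, and without day 6 IND replicate 1 NR2F2 did. Without day 12 IND replicate 1 AMHR2 and NR2F2 joined RUNX1 at day 12 (4.16% and 5.49% of all genes), and without day 14 CTRL replicate 3 RUNX1 joined KITLG at day 14. limma on FPKM called 0 at both days. The interaction of day and induction asks whether the difference changed over the days. It passed for 0 of 8 genes by edgeR, against 2.38% of all genes, with NR2F2 and RUNX1 at an unadjusted p under 0.05 (0.00317 and 0.0398, adjusted p = 0.0904 and 0.332), and DESeq2 called NR2F2. A difference that passed at one day and not at another is thus not shown to differ between days.

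Averaged over the 5 days, a contrast chosen after the values had been seen, 3 of 8 genes were higher in IND and 2 lower. KITLG was 1.54-fold higher (0.63 ± 0.12 SE, adjusted p = 0.000153) and RUNX1 1.77-fold higher (0.83 ± 0.15 SE, adjusted p = 0.000152), and both passed under 9 of 9 alternatives. CDKN1B was 1.12-fold higher (0.17 ± 0.04 SE, adjusted p = 0.00164). AMHR2 was at 0.820 of the CTRL level (-0.29 ± 0.07 SE, adjusted p = 0.00269) and GJA1 at 0.855 (-0.23 ± 0.08 SE, adjusted p = 0.0331). Of all 22442 genes, 11.8% were higher and 12.4% lower in this contrast. The call of CDKN1B was lost without replicate 3 of every group (adjusted p over the alternatives 1.18e-05 to 0.147), that of AMHR2 without replicate 2 or 3 (0.000514 to 0.0915), and that of GJA1 without replicate 1 or 2 (0.00137 to 0.242). NR2F2 (0.09, adjusted p = 0.420), ESR1 (0.33, adjusted p = 0.601) and ESR2 (-0.19, adjusted p = 0.618) did not pass. With day 10 IND replicate 2 left out the 5 calls remained.

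Markers of other cell types moved beside KITLG and RUNX1 at day 8. Of 8 endothelial markers, all tested, 5 rose in IND at day 8 (CDH5, ESAM, PECAM1, TEK and TIE1), 3 at day 10 and 3 at day 12, and 1 fell at day 6 (all genes 7.49%, 0.856% and 2.38% higher and 2.37% lower on those days). In the day 10 fit without IND replicate 2, 6 rose at day 10 (8.74%). Their summed level was 145 to 161 CPM in CTRL and 194 to 208 CPM in IND at day 8, and 83.0 to 103 against 99.0 to 101 CPM at day 12. Of 8 blood markers only CD34 and TAL1 could be tested, and both rose at day 8, with 1 at day 10 and 1 at day 12. Both rose at day 10 without IND replicate 2 (8.74%). The blood sum was 9.57 to 13.9 CPM in CTRL and 22.8 to 25.3 CPM in IND, with 5 and 3 of the 8 genes at or under the floor of 3 counts. RUNX1 is also a factor of blood and endothelium, and KITLG is also made by endothelial cells. At day 14, when KITLG again passed, no endothelial or blood marker did, and the endothelial sum was 73.9 to 107 CPM in CTRL and 105 to 138 CPM in IND. The part of these cell types in the results on KITLG and RUNX1 was not tested.

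Of the 12 granulosa markers, none passed at day 6 with all libraries, and 3 rose at day 8 (BMPR1B, FSHR and SERPINE2). At day 10 SERPINE2 rose and GREM1 fell, at day 12, 2 rose and 1 fell, and at day 14, 3 rose and 1 fell. Over all genes the shares higher and lower were 7.49% and 6.67% at day 8, 0.856% and 1.18% at day 10, 2.38% and 3.04% at day 12, and 3.21% and 5.22% at day 14, and those of day 6 were 1.29% and 2.37%. The granulosa sum was 114 to 151 CPM in CTRL and 169 to 195 CPM in IND at day 8, and 138 to 206 against 270.0 to 306 CPM at day 12, while day 4 had 246 to 261 CPM. Of 10 Sertoli markers, 2 fell and 1 rose at day 6 and again at day 8, and 1 fell and 1 rose at day 10. The Sertoli sum was lower in IND at day 8 (88.8 to 97.4 CPM against 121 to 157 CPM) and at day 14 (126 to 146 CPM against 164 to 264 CPM). Of 10 stromal markers, which bear on NR2F2, 2 fell at day 6, when the sum was 6013 to 8244 CPM in IND and 9723 to 13136 CPM in CTRL. At day 8, 2 rose and 4 fell. At day 10, 2 fell and the IND sum ran from 15861 to 46808 CPM against 16598 to 18349 CPM in CTRL, with 17764 CPM as the highest IND value without replicate 2. At day 12, 3 fell, and at day 14, 3 rose and 1 fell, with 24479 to 28555 CPM in IND and 17073 to 22198 CPM in CTRL. Of 8 mesothelial markers, 3, 5, 3, 4 and 3 fell from day 6 to day 14 and 1 rose, at day 6. Of 8 neuronal markers, 5, 3, 5 and 6 fell from day 8 to day 14. Of 8 muscle markers, 2, 3, 2, 1 and 2 fell and 1 rose, at day 8, and of 8 pluripotency markers 1 fell at day 6 and 1 at day 8. Without day 10 IND replicate 2, day 10 had 3 granulosa markers higher and 1 lower, 4 stromal higher and 4 lower, 5 mesothelial lower, 6 neuronal lower and 3 muscle lower with 1 higher (all genes 8.74% and 9.51%), and without day 12 IND replicate 1 a single neuronal marker fell at day 12. No proliferation marker of 10 passed between IND and CTRL by edgeR on any day with all libraries, whereas 7 fell in day 14 CTRL against day 4 (all genes 22.9%). Without day 10 IND replicate 2, 1 proliferation marker rose and 1 fell at day 10, and 1 Sertoli marker rose and 3 fell. Without day 12 IND replicate 1, 1 proliferation marker rose and 1 fell at day 12 (4.16% and 5.49%), and no granulosa marker fell. Without day 4 replicate 3, 10 proliferation markers fell in day 14 CTRL (24.2%). The part of these lists in the results was not tested either.

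**Figure D5:**
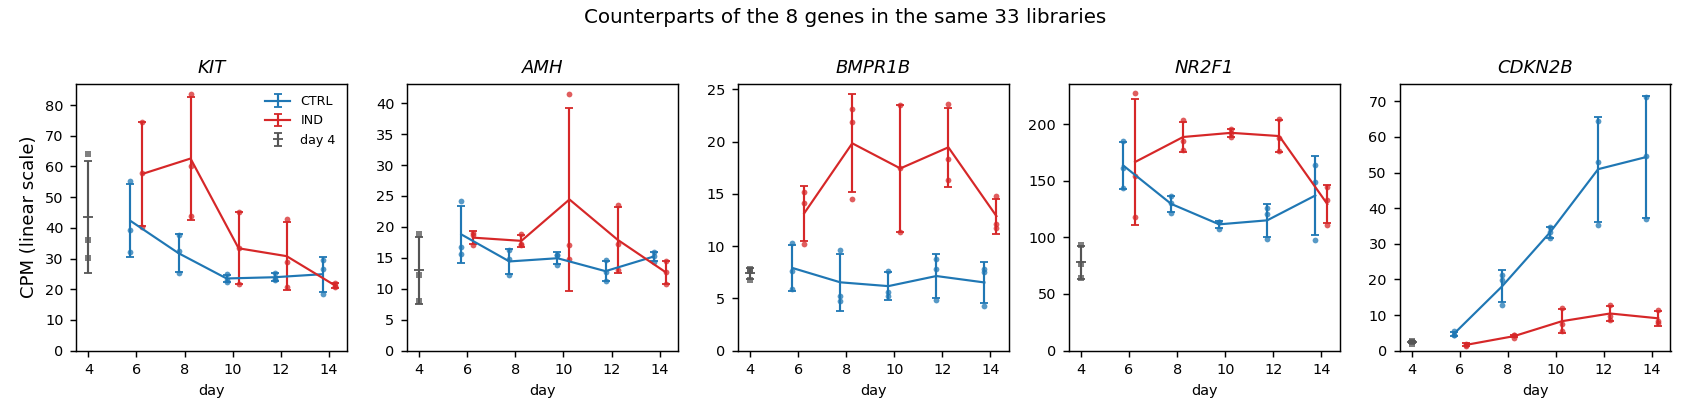
KIT, AMH and NR2F1, direct counterparts of the 8 genes, and BMPR1B and CDKN2B, in CPM (y axes, linear) against day (x axes). BMPR1B and CDKN2B come from the partner lists, as genes called between IND and CTRL on at least 2 days with the same sign. Points are single libraries, lines join group means and bars are 1 SD of 3 libraries, in grey for day 4, blue for CTRL and red for IND. BMPR1B runs higher and CDKN2B lower in IND, and KIT is higher in IND at day 8 with wide bars (62.6 against 31.7 CPM).

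Finally, the genes whose pattern over the 33 libraries was most like each of the 8 were listed by Spearman's rho on log2 CPM, as a description that the shared trend over days carries. For KITLG they were GCLC (0.973) and HAPLN1 (0.941), for AMHR2 SIRT2 (0.968) and TMEM151A (0.963), and for RUNX1 AQP4 (0.958) and TRIM25 (0.929). For CDKN1B they were HLX (0.914) and TAPBP (0.899), and for GJA1 TRIM37 (0.885) and UBE3C (0.873). ESR2 was most like FIGNL2 (0.873) and GTPBP3 (0.864), and NR2F2 most like MSRA (0.785) and RIMS4 (0.756). The low counts of ESR1 gave the weakest likeness, to WDR19 (0.606) and SENP2 (0.574). Among the 8 genes themselves the furthest from 0 were KITLG with AMHR2 (-0.896), CDKN1B with GJA1 (-0.759) and AMHR2 with ESR2 (-0.757), in each case 1 gene that rose and 1 that fell after day 4.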

How the data were processed

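The authors deposited a table of raw gene counts with FPKM values for 33 libraries of 1 clone. Per the labels and methods, they trimmed non-directional libraries, in which strand is not marked, with fastp 0.23.2, aligned them to GRCh38 with HISAT2 2.0.5 and counted with featureCounts 1.5.0-p3. CPM were computed here with TMM scaling. Each comparison used the 6 libraries of its groups: low genes were removed with filterByExpr, and edgeR 4.0.16 (quasi-likelihood test, R 4.3.3) gave p-values adjusted over all genes tested, called at 0.05. Levels of different genes were compared only as FPKM. Alternatives were DESeq2 1.42.0, limma 3.58.1 on log2(FPKM + 1), no filter, 1 fit over 33 libraries, a replicate block and leaving out each library. Lists and partner genes were refitted without the 3 libraries that stood furthest apart, an alternative chosen after seeing the data. Scripts were tested on simulated data. A level at or under 3 counts was taken as the floor. The 8 genes, the partner lists and the marker lists were chosen with earlier results of these data known. Beside the 8 genes, the text names FOXL2, their direct counterparts, from each partner list up to 3 genes called on at least 2 days with the same sign, and the 2 genes most alike. Other genes behind small counts were named after their values were seen. Same-numbered replicates did not deviate together (correlations -0.107 to 0.078 over 15 pairs), so the numbers do not pair the libraries. Some results on the partner lists are not reported here.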

Additional observations from a re-analysis of the deposited data

How the results depend on the processing

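The number of the 8 genes called between IND and CTRL moved with the setting. At day 6 it was 0, and it was 1 with DESeq2, 2 without the filter on low counts and 2 with the replicate block, with 0 to 1 over the fits that each left out 1 library. At day 8 it was 2, and 1 with limma on FPKM and 1 in 1 fit over 33 libraries. At day 10 it was 0, and 1 with DESeq2 and 2 in the fit over 33 libraries, with 0 to 3 over the fits without 1 library. At day 12 it was 1, and 0 with limma and 0 over 33 libraries (0 to 3 without 1 library). At day 14 it was 1, 2 without the filter, and 0 with limma and 0 over 33 libraries (0 to 2 without 1 library). For the interaction it was 0, and 1 without the filter and 1 with DESeq2, and for the mean over days, an analysis chosen after the values were seen, 5 (3 to 4 without 1 replicate number and 5 without day 10 IND replicate 2). The counts against day 4 stayed within 1.5 times of their values under every alternative run. At day 12 the replicate block left the count at 1 but called KITLG (adjusted p = 0.0269) in place of RUNX1 (0.0595), and at day 8 it also called AMHR2 (0.0495). The replicate block turned the sign of ESR2 at day 8 (0.0024) and of RUNX1 at day 10 (-0.060). Replicate numbers do not pair the libraries, as given above, so little can be read from the calls and signs under this block. Leaving out 1 library turned signs only where the difference had not passed: AMHR2 at day 6 ran from -0.16 to 0.019, ESR2 at day 6 from -0.12 to 0.26, ESR2 at day 8 from -0.18 to 0.30, NR2F2 at day 8 from -0.035 to 0.057, CDKN1B at day 8 from -0.057 to 0.13, GJA1 at day 8 from -0.10 to 0.18, RUNX1 at day 10 from -0.23 to 0.36, ESR2 at day 14 from -0.69 to 0.052, and KITLG in CTRL at day 6 against day 4 from -0.40 to 0.052. Of the 16 most alike genes, 9 were kept without day 10 IND replicate 2 and 3 with Pearson's r. Over all genes, the calls of day 6 went from 700 to 1209 without the filter, 359 with limma and 464 over 33 libraries (348 to 451 without 1 library), those of day 8 from 2752 to 1599 over 33 libraries (1321 to 4732), those of day 10 from 404 to 1793 with DESeq2, 3325 over 33 libraries, 15 with the replicate block, 11 to 72 without any other library and 3768 without IND replicate 2, those of day 12 from 1080 to 1957 with DESeq2 and 1878 without the filter (417 to 1979), those of day 14 from 1606 to 2448 without the filter and 861 over 33 libraries (905 without IND replicate 3), those of CTRL against day 4 from 3963 to 2312 to 2520 at day 6 and from 6946 to 4506 without CTRL replicate 3 at day 8, those of the mean over days from 5432 to 3242 and 3454 without replicate 3 and 1, and those of the interaction from 533 to 2360 without the filter and 1272 with DESeq2, 43, 253 and 120 without replicate 1, 2 and 3, and 1016 without day 10 IND replicate 2. The cause of these changes was not tested. In limma on log2(FPKM + 1), the added 1 shrinks the differences of genes far below 1 FPKM, RUNX1 and ESR2 among them. Depth limits ESR1 and ESR2 most, since a floor of 3 counts equals 0.0564 to 0.130 CPM.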
